A study of Mus musculus with 2 samples.

Results

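The cells described here are CD4 helper T cells that carried no Foxp3 transcript, taken from MB49 tumours, a mouse tumour model. They were chosen from measured values. A member had at least 1 UMI (unique molecular identifier, a counted transcript) of Cd4, at least 2 UMIs over Cd3e, Cd3g and Cd3d, and 0 UMIs of Foxp3, of Il2ra, of Cd8a and Cd8b1, and of C1qa, C1qb and C1qc. A member also had at most 1 UMI of Lyz2. Of 15259 cells kept, 517 met the rule, 241 in the library labelled Lcn2-ko and 276 in the library labelled wt. Both libraries came from bone marrow chimeras, female mice that were lethally irradiated and given male marrow, which was Lcn2-KO for the library labelled Lcn2-ko and WT for the library labelled wt. Tumours were digested with collagenase, dispase and DNase at 37 °C, and live CD45+ cells were sorted and loaded on the BD Rhapsody single-cell system. The stated purpose of the experiment was the part played by Lcn2, which encodes the iron-siderophore binding protein lipocalin, in the diversity and function of neutrophils. The ages and the number of mice behind each library are not given in the sources used here. With 1 library per label no comparison could be tested: the intervals below are 95% intervals that cover counting error within these libraries only.

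CD4 helper T cells recognise peptides on MHC class II molecules and act on other cells through surface ligands of the tumour necrosis factor (TNF) family and through secreted cytokines. Cells without Foxp3 include the helper lineages known by their regulators, Th1 (Tbx21), Th2 (Gata3) and follicular helper (Bcl6), whereas Foxp3 defines the regulatory T cells that restrain them. The genes that mark the cells described here are Cd4, Tnfsf11 (RANKL, the ligand of the receptor RANK on dendritic cells and osteoclast precursors), Tnfsf8 (CD30 ligand) and Ccl1 (a chemokine that binds the receptor Ccr8). Cd4 lies at chr6:124864692-124888221, Tnfsf11 at chr14:78277445-78308043, Tnfsf8 at chr4:63831308-63861347 and Ccl1 at chr11:82176657-82305690, all on the minus strand of GRCm38. All of them are protein coding in GENCODE vM21, whose Ccl1 record runs far upstream of the RefSeq start used below.

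Because Tnfsf11, Tnfsf8 and Ccl1 UMIs were found in the same helpers more often than in the others, as given below, the region around each start site is shown, 250 bases before it to 50 after, from RefSeq on GRCm38.p6, 5′ to 3′ on the gene's strand. Capitals mark the letters GGAAA or the reverse complement TTTCC, the core bound by NFAT factors, which act downstream of the T cell receptor.
Tnfsf11 (chr14:78307994-78308293): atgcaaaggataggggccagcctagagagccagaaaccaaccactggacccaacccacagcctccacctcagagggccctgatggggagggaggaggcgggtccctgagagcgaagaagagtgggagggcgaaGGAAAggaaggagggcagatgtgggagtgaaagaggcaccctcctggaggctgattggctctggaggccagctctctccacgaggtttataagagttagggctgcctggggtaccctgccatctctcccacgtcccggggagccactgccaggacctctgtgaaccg
Tnfsf8 (chr4:63861235-63861534): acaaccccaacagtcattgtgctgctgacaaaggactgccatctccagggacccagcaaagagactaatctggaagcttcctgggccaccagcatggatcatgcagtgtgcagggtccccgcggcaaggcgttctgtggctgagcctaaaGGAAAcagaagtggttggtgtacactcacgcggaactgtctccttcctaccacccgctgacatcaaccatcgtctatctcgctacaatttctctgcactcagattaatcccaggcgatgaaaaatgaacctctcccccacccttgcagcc
Ccl1 (chr11:82179763-82180062): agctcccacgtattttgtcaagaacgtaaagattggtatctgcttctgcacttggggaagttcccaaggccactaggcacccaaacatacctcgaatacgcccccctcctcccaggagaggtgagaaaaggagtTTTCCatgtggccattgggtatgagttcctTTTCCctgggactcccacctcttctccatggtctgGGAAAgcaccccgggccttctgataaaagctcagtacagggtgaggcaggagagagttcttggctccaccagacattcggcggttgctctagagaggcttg
The Tnfsf11 window held 1 match, 117 bases before the start, and the Tnfsf8 window 1 match, 100 bases before it. The Ccl1 window held 3 matches, at 116, 86 and 51 bases. Of 32851 promoter windows of the same length, 61.3% held at least 1 such match. The AP-1 letters TGANTCA, searched on both strands, had 0 matches in these 3 windows and occurred in 7.81% of all windows. The kappa B motif had 2 overlapping matches in the Ccl1 window, 196 and 195 bases before the start, and occurred in 8.46% of all windows. The letters TATAAA, searched on both strands, had 1 match, read on the opposite strand, 32 bases before the Tnfsf11 start, and occurred in 13.6% of all windows. These matches are a description of the letters and say nothing about binding.

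The libraries held 40959725 UMIs in 7788 cell barcodes (labelled Lcn2-ko) and 42069099 UMIs in 7974 barcodes (labelled wt), of which 7547 and 7712 cells reached 200 genes with no more than 20% of UMIs from mitochondrial genes. The libraries shared 4 barcodes, 0 of them helpers. Lcn2 itself had 633 UMIs (15.6 CPM, counts per 1000000 UMIs) among the kept cells of the library labelled Lcn2-ko and 704 UMIs (16.9 CPM) in the library labelled wt. The deposited counts therefore did not separate the libraries by their label, the deleted part of the gene is not given in the sources used here, and each library is called by its label. Helpers held 3 Lcn2 UMIs in the library labelled Lcn2-ko and 2 in the library labelled wt. The median helper had 2571 UMIs and 1336 genes in the library labelled Lcn2-ko and 2561 UMIs and 1360 genes in the library labelled wt. Other classes of the same libraries are set beside them: regulatory T cells (the same gate with at least 1 Foxp3 UMI and Il2ra free; 541 cells labelled Lcn2-ko and 536 labelled wt), CD8 T cells (1066 and 821) and macrophages (at least 3 C1q UMIs, no Cd3 UMI; 215 and 205), which should lack T cell transcripts.

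Some helpers also carried transcripts of another class. At least 5 UMIs of a tumour and stroma, macrophage, neutrophil, dendritic cell, mast cell or B cell marker list were present in 37 of 241 helpers (15.4%) of the library labelled Lcn2-ko and in 37 of 276 (13.4%) of the library labelled wt. These cells were deep, with medians of 6853 and 4575 UMIs, and held 36.2% and 30.9% of all helper UMIs. Dendritic cell markers marked 28 and 31 of them, tumour and stroma markers 18 and 15, neutrophil markers 7 and 11, and macrophage markers 7 and 6. The tumour and stroma list summed to 2458 CPM in helpers of the library labelled Lcn2-ko and 1816 CPM in those labelled wt, and to 146 and 141 CPM without these cells. A single helper labelled Lcn2-ko held 437 of that library's 528 mast cell list UMIs. Values without the 74 cells are given beside each result that rests on them, under the name "without mixed cells", a reading added after the data were seen. What brought these transcripts into the cells was not tested.

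The gate had neighbours just outside it, whose values are given once as a description. Members with exactly 1 Cd4 UMI (70 labelled Lcn2-ko and 91 labelled wt) had 55.3 and 81.3 CPM of Tnfsf11, against 18.2 and 17.0 CPM in the 333 and 372 cells with Cd4 at 0 and the other limits met. Cells with 1 Il2ra UMI (78 and 76) had 465 and 344 CPM of Tnfsf11 and 321 and 308 CPM of Tnfsf8, so the limit on Il2ra left out cells in which both transcripts were at or above the members' level. Cells with 1 Foxp3 UMI (27 and 27) had 36.6 and 28.9 CPM of Tnfsf11, and 622 and 984 CPM of Ikzf2, the Helios gene of regulatory T cells.

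Tnfsf11, Tnfsf8 and Tnfsf4, TNF-family ligand genes, were higher in helpers than in regulatory T cells of the same library. Tnfsf11 had 260 UMIs (324 CPM) in helpers of the library labelled Lcn2-ko and 236 UMIs (250.3 CPM) in those labelled wt. The same transcript was at 24.3 and 26.7 CPM in regulatory T cells, at 57.4 and 39.6 CPM in CD8 T cells and at 1.42 and 1.42 CPM in macrophages. Both helper values lay above those of these classes. They lay below the 465 and 344 CPM of cells with 1 Il2ra UMI that met the other limits. Tnfsf8 had 231 UMIs (288 CPM) in helpers labelled Lcn2-ko and 245 UMIs (259.8 CPM) in those labelled wt, against 7.39 and 16.5 CPM in regulatory T cells. Tnfsf4, which encodes the ligand of the costimulatory receptor Tnfrsf4, was at 77.2 CPM labelled Lcn2-ko and 49.9 CPM labelled wt in helpers, and at 3.17 and 4.26 CPM in regulatory T cells. Cd40lg, through which helpers license dendritic cells and B cells, was low in helpers, at 31.1 and 25.5 CPM. Tnf was at 83.4 and 101 CPM.

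Receptors of the Tnfsf8 and Tnfsf4 products, and the related receptor gene Tnfrsf9, were lower in helpers than in regulatory T cells. Tnfrsf8, which encodes CD30, the receptor of the Tnfsf8 product, was at 4.98 CPM in helpers and 53.8 CPM in regulatory T cells of the library labelled Lcn2-ko, and at 5.30 and 60.2 CPM in those labelled wt. Tnfrsf4 was at 354 and 266 CPM in helpers (labelled Lcn2-ko and wt) and at 1032 and 907 CPM in regulatory T cells. The costimulatory receptor gene Tnfrsf9 was at 626 and 475 CPM in helpers and at 2080 and 1827 CPM in regulatory T cells.

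Among cytokines and chemokines, helpers carried Ccl1, Ifng and Csf2, and few UMIs of the Th2 cytokines. Ccl1 had 114 UMIs (142 CPM) labelled Lcn2-ko and 129 UMIs (137 CPM) labelled wt, against 7.92 and 12.3 CPM in regulatory T cells. It was carried unevenly: the 5 helpers with most Ccl1 held 53.5% of its UMIs labelled Lcn2-ko and 61.2% labelled wt, against 18.1% and 13.98% for Tnfsf11. Ifng, the Th1 cytokine, was at 159 and 142 CPM in helpers (labelled Lcn2-ko and wt), at 7.39 and 14.4 CPM in regulatory T cells and at 154 and 135 CPM in CD8 T cells, so helper and CD8 levels lay close together. Ifng was also uneven, as the 5 helpers with most of it held 47.7% and 49.3% of its UMIs. Csf2, which encodes GM-CSF, was at 79.7 and 95.5 CPM in helpers and at 5.28 and 6.93 CPM in regulatory T cells. Il21 had 15 UMIs labelled Lcn2-ko and 38 labelled wt in helpers, and 0 UMIs in the regulatory and CD8 T cells of either library. Il17a had 40 and 21 UMIs, each in 5 cells, of which a single cell held 26 and 14. Il2 had 2 and 7 UMIs, Il4 7 and 1, Il13 7 and 3, Il5 0 and 4, and Il3, Il9 and Il22 had 0 in both libraries. The 7 Il4 UMIs labelled Lcn2-ko all lay in mixed cells.

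Of the lineage regulators Gata3 and Tbx21, Gata3 was detected in more helpers. It had a UMI in 51.0% of helpers labelled Lcn2-ko and 56.9% of those labelled wt, and was at 337 and 371 CPM, below the 512 and 457 CPM of regulatory T cells. Tbx21 had a UMI in 20.3% and 25.4% of helpers. Cxcr5, the follicular homing receptor gene, was at 1.25 and 3.18 CPM. Tcf7, a regulator of naive and memory T cells, was at 83.4 CPM labelled Lcn2-ko and 124 CPM labelled wt in helpers, against 8.97 and 5.86 CPM in regulatory T cells. Ikzf2 was at 177 and 194 CPM in helpers and at 1092 and 1113 CPM in regulatory T cells, and Ctla4 at 464 and 527 CPM against 1648 and 1640 CPM.

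Receptors of activation and residence were present in helpers of both libraries. Icos, the costimulatory receptor gene, was at 985 CPM labelled Lcn2-ko and 829 CPM labelled wt in helpers, against 1965 and 1678 CPM in regulatory T cells. Pdcd1, which encodes PD-1, was at 309 and 315 CPM, and Il7r, the interleukin-7 receptor gene of long-lived T cells, at 413 and 350 CPM. Cxcr6, a receptor of tissue-resident T cells, was at 311 and 276 CPM, whereas the Th1 homing receptor gene Cxcr3 was at 21.2 and 33.9 CPM. Bhlhe40, a transcription factor gene that sustains cytokine production in T cells, was at 1406 and 1245 CPM in helpers, above 763 and 774 CPM in regulatory T cells and 741 and 719 CPM in CD8 T cells. Nr4a1, induced by T cell receptor signals, was at 631 and 725 CPM. Nkg7, a gene of cytotoxic granules, was at 298 and 294 CPM in helpers.

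**Figure D1:**
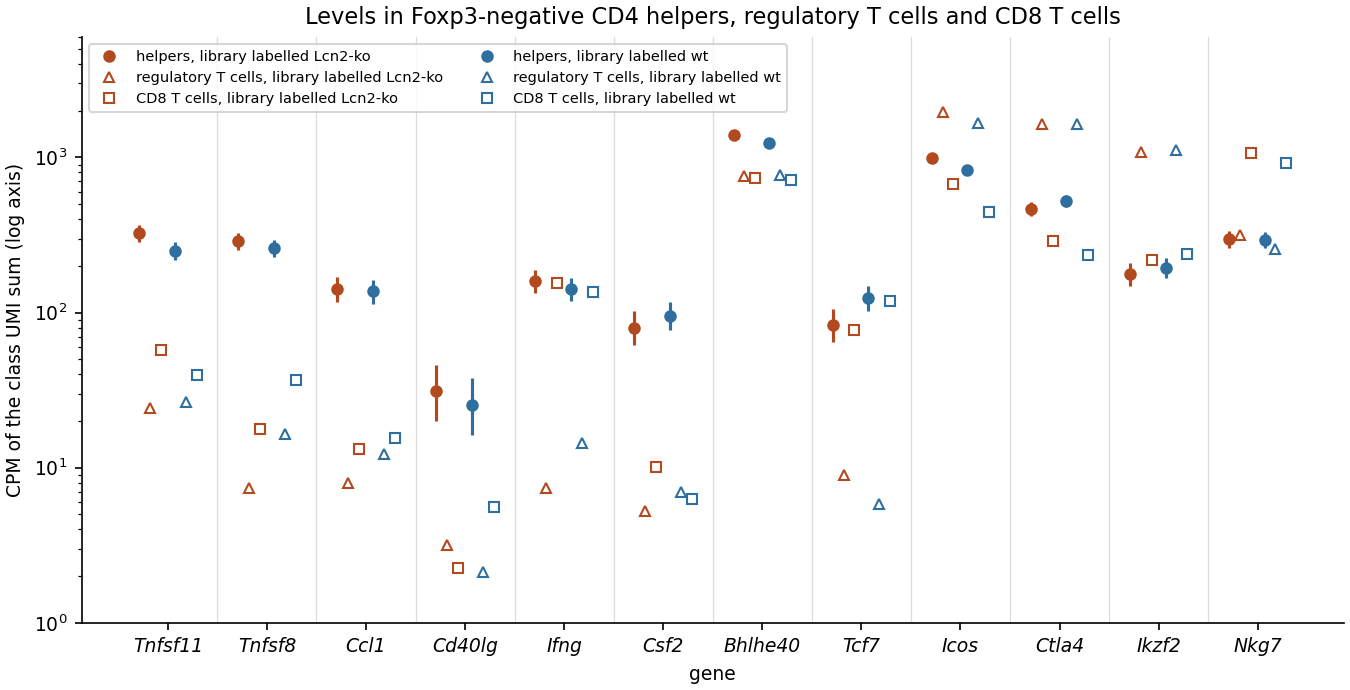
Level of 12 genes in CPM of the class's summed UMIs, on a log axis, with the library labelled Lcn2-ko left of the library labelled wt. Filled circles are helpers with exact Poisson 95% intervals, open triangles regulatory T cells and open squares CD8 T cells. Tnfsf11 stood at 324 and 250.3 CPM in helpers, above 24.3 and 26.7 CPM in regulatory T cells, whereas Ikzf2 stood at 177 and 194 CPM in helpers, below 1092 and 1113 CPM.

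Detection per cell is given beside that in macrophages, which should lack T cell transcripts but were deeper than helpers. A Tnfsf11 UMI was present in 44.0% of helpers labelled Lcn2-ko (interval 37.6 to 50.5%) and 37.7% of those labelled wt (31.9 to 43.7%), against 0.465% and 0.976% of macrophages, whose medians were 5804 and 6705 UMIs. The share was 13.5% and 8.89% in CD8 T cells, and 5.55% and 5.60% in regulatory T cells. With each cell thinned to 1000 UMIs, it was 25.9% and 24.5% of helpers. A Tnfsf8 UMI was present in 37.3% and 37.0% of helpers, and in 7.44% and 8.29% of macrophages. Its share was 2.03% and 2.80% in regulatory T cells, and 4.97% and 8.28% in CD8 T cells. With cells thinned to 1000 UMIs, Tnfsf8 was detected in 19.7% and 20.8% of helpers and in 1.44% and 0.508% of macrophages. Ccl1 was detected in 15.4% and 13.4% of helpers, and Ifng in 19.1% and 17.8%, below the 23.8% and 25.9% of CD8 T cells although the Ifng levels lay close together. Spp1, which macrophages also express, was detected in 20.7% and 10.5% of helpers, in 16.4% and 12.7% of CD8 T cells and in 12.4% and 10.4% of regulatory T cells. Without mixed cells, it was detected in 14.7% and 5.44% of helpers.

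**Figure D2:**
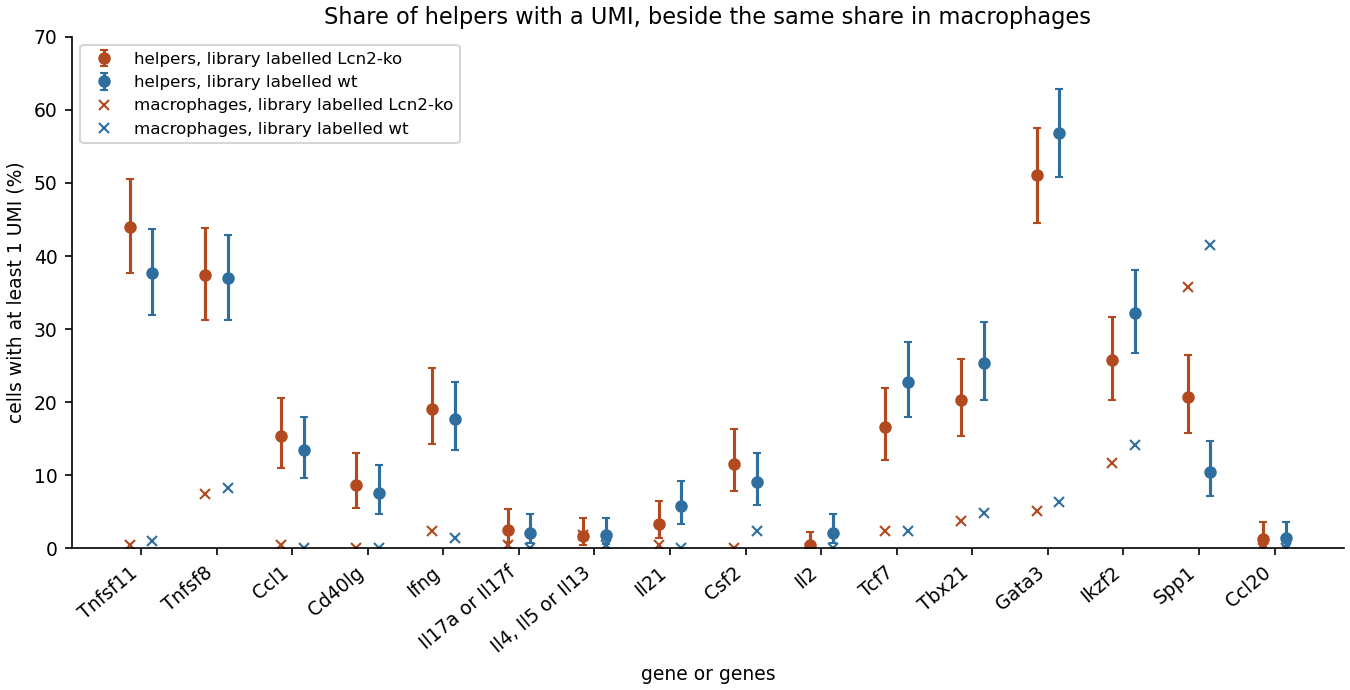
Share of helpers with at least 1 UMI of a gene or of any gene of a group, in percent, with exact Clopper-Pearson 95% intervals, for the library labelled Lcn2-ko (left of each pair) and the library labelled wt. Crosses give the same share in macrophages; Tnfsf11 is at 44.0% and 37.7% of helpers with crosses near 0, and for Spp1, which macrophages express, the crosses lie far above the helpers.

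The marker genes met in the same helpers. Tnfsf8 had a UMI in 55 of the 106 Tnfsf11-positive helpers (51.9%) and in 25.9% of the other helpers of the library labelled Lcn2-ko, and in 67 of 104 (64.4%) against 20.3% in the library labelled wt. Ccl1 had a UMI in 25.5% of Tnfsf11-positive helpers and 7.4% of the others labelled Lcn2-ko, and in 26.0% and 5.8% labelled wt. Of helpers with Ccl1, 73.0% had a Tnfsf11 UMI in both libraries. Ifng was detected in 30.2% against 10.4% labelled Lcn2-ko and in 26.0% against 12.8% labelled wt. All 3 of Tnfsf11, Tnfsf8 and Ccl1 were detected in 12 helpers labelled Lcn2-ko (4.98%) and 22 labelled wt (7.97%), and none of them in 96 (39.8%) and 131 (47.5%). The name "helper marked by Tnfsf11, Tnfsf8 and Ccl1" thus describes a majority of the gated cells by at least 1 UMI, and few of them by all of these genes. Tnfsf11-positive helpers were slightly deeper, with medians of 2686.5 and 2726 UMIs against 2524 and 2476 in the others, and deeper cells show more of any transcript.

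A description across all measured genes extended this split. Of 1807 genes with 100 CPM and 30 UMIs or more, 35 (1.94%) had 2 times or more the level in Tnfsf11-positive helpers compared with the other helpers of both libraries, and 27 (1.49%) were as far below. Without mixed cells, the counts were 30 and 11 of 1784. Penk, which encodes the opioid precursor proenkephalin, was at 1924 CPM in Tnfsf11-positive helpers and 389 CPM in the others labelled Lcn2-ko, and at 1352 and 399 CPM labelled wt. Igfbp7, a secreted binding protein for insulin-like growth factors, was at 815 and 136 CPM labelled Lcn2-ko and at 669 and 126 CPM labelled wt. Other genes on the higher side were Slc17a6, a vesicular glutamate transporter gene (log2 ratios 3.05 labelled Lcn2-ko and 3.40 labelled wt), Scin, encoding the actin-severing protein scinderin (3.33 and 2.61), the serpin gene Serpinb9b (3.03 and 2.57, with the smaller of the ratios at -1.15 once cells were thinned to 1000 UMIs), Tnfsf4 (1.79 and 3.68), the neurotrophin receptor gene Ntrk3 (2.43 and 1.79) and the prion protein gene Prnp (1.84 and 1.86). Of listed genes, Ccr7 had log2 ratios of 1.43 and 2.43, Tbx21 1.14 and 1.13, Gata3 0.62 and 0.71, and Ikzf2 -1.06 and -1.05.

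On the lower side, some genes kept their ratio without mixed cells and some did not. The chemokine gene Ccl5 (log2 ratios -2.34 labelled Lcn2-ko and -3.08 labelled wt) stood at -3.20 and -3.27 without mixed cells, and the granzyme gene Gzmb (-3.29 and -2.22) at -3.79 and -3.86. By contrast, Cxcl3 (-3.43 and -2.89) stood at 2.496 and 0.10, Il1b (-2.89 and -2.54) at -0.37 and 0.52, and Ptgs2 (-2.43 and -2.59) at -0.09 and -0.80. These are genes of activated myeloid cells. Helpers with other-class UMIs made up 8 and 14 of the Tnfsf11-positive cells, against 29 and 23 of the others.

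Against regulatory T cells of the same library, 160 of 3573 genes at 50 CPM or more (4.48%) had 2 times or more the level in helpers in both libraries, and 114 (3.19%) were as far below. The gate itself used Foxp3 and Il2ra, so these counts are a description. Csf2 (log2 ratios 3.92 labelled Lcn2-ko and 3.78 labelled wt), Tnfsf8 (5.28 and 3.98), Tnfsf11 (3.74 and 3.23), Ccl1 (4.16 and 3.48), Ifng (4.43 and 3.30) and Tcf7 (3.22 and 4.404) were among the 12 genes chosen by the ratio nearer 0 of the libraries. So were Klri2 (5.54 and 3.69) and Klrd1 (3.90 and 3.02), killer-cell lectin-like receptor genes, Nrgn, which encodes the calmodulin-binding protein neurogranin (4.58 and 3.14), Ntrk3 (3.65 and 3.36) and Igfbp7 (3.95 and 3.32). Slc17a6, at 110.8 and 92.3 CPM in helpers, had 17 UMIs in the regulatory T cells labelled Lcn2-ko and 0 in those labelled wt.

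Genes known from tumour regulatory T cells were lower in helpers. Klrg1 was at 18.7 CPM in helpers and 447 CPM in regulatory T cells labelled Lcn2-ko, and at 48.8 and 385 CPM labelled wt. Gzmb was at 240 and 2234 CPM labelled Lcn2-ko and at 232 and 1645 CPM labelled wt. Lrrc32, which encodes GARP, a carrier of latent TGF-beta (log2 ratios -2.87 and -2.95), Il1rl1, encoding the interleukin-33 receptor ST2 (-2.53 and -4.02), Il10 (-3.08 and -2.49) and the methionine sulfoxide reductase gene Msrb3 (-3.45 and -4.20) lay on the same side. Without mixed cells, 102 of 3472 genes lay above by that limit and 129 below.

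Against CD8 T cells, 149 of 3472 genes (4.29%) had 2 times or more the level in helpers in both libraries and 45 (1.3%) were as far below. The gate used Cd4, Cd8a and Cd8b1. Penk was at 1025 CPM in helpers and 37.6 CPM in CD8 T cells labelled Lcn2-ko, and at 776 and 38.5 CPM labelled wt. Scin was at 172 and 3.76 CPM labelled Lcn2-ko and at 106 and 4.86 CPM labelled wt. Ccn4, a secreted matricellular protein gene (log2 ratios 3.66 and 3.23), Ramp3, encoding a receptor activity-modifying protein (3.06 and 3.46), and Csf2 (2.99 and 3.93) were also higher in helpers. The 8 genes named on the lower side included the granzyme genes Gzma (-4.78 and -2.88) and Gzmb (-2.95 and -2.76), the chemokine gene Xcl1 (-3.10 and -2.60) and Ly6c2 (-2.79 and -2.90).

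Clustering the helpers by themselves gave 6 states. The clustering left out genes whose levels in the libraries lay 1.5-fold or more apart, and the leading genes of a state define it, so they are given as a description. State 1 held 115 helpers labelled Lcn2-ko (47.7%) and 104 labelled wt (37.7%), a difference of 10.0 percentage points (1.498 to 18.4). Its leading genes were Slc17a6 (277 and 274 CPM), Serpinb9b (292 and 152), Igfbp7 (1004 and 988), the protease gene Bace2 and Tnfsf4 (180 and 145). Tnfsf11 was at 706 CPM in state 1 labelled Lcn2-ko and 611 CPM labelled wt, Tnfsf8 at 578 and 608, Ccl1 at 298 and 410, and Penk at 2323 and 2064. State 1 is therefore where most of the marker transcripts lay. In it, 3 of 6 Th1 markers (Tbx21, Ifng and Il12rb2) were at 2 times or more the level of the other states. So were 3 of 7 regulatory T cell markers (Tnfrsf4, Tnfrsf18 and Ccr8). In the first state of the clustering without mixed cells, these counts were 2 and 1. State 1 was named after neither type.

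State 2, with 63 helpers labelled Lcn2-ko (26.1%) and 84 labelled wt (30.4%), was naive or central memory T cell-like. It carried 4 of the 6 markers of those cells at 2 times or more the level of the other states, Lef1, Tcf7 (347 and 375 CPM), S1pr1 (205 and 313) and Klf2, although the lymph node homing receptor gene Ccr7 was higher in state 1. The 5 interferon-response markers were also higher in state 2, and the cell with mast cell transcripts fell in it. Of the 5 cycling markers, Mki67 (116 and 399 CPM) was higher in state 2 by the same limit. State 3 held 26 (10.8%) and 29 (10.5%) helpers and was regulatory T cell-like, with 6 of 7 such markers, among them Ikzf2 at 1092 and 1267 CPM and Ctla4 at 2126 and 2842 CPM. Tnfrsf4 and Tnfrsf18, also among them, passed the same limit in state 1. In the clustering without mixed cells, the third state carried 4 of 7. The leading genes of state 3 were Il10, Klrg1, Lrrc32, Neb and Izumo1r, the folate receptor family gene of regulatory and anergic T cells. Foxp3 and Il2ra were at 0 UMIs there because the gate required it, the median depth was 1900.5 and 1728 UMIs, and Tnfsf11 was at 0 UMIs labelled Lcn2-ko and 18 CPM labelled wt. For those 55 cells the data go against the name helper.

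State 4 held 15 helpers labelled Lcn2-ko (6.22%) and 33 labelled wt (11.96%), a difference of -5.73 percentage points (-10.7 to -0.697). It led with Cd7 (323 and 522 CPM), Bend4, Ccl5 (2344 and 2130), Prf1 (162 and 113) and Gzma (222 and 635), and 4 of 6 innate-like T cell markers, Klrb1c, Trdc, Fcer1g and Tyrobp, were higher in it than in the other states. States 5 (15 and 15 cells) and 6 (7 and 11 cells) consisted of helpers with other-class UMIs. State 5 carried tumour and stroma genes such as Cald1 (711 and 542 CPM) and Col18a1 (662 and 679 CPM) at median depths of 12229 and 9958 UMIs. Spp1 was at 1605 and 1090 CPM in state 5, its highest level among the states. State 6 carried neutrophil and dendritic cell genes such as S100a8 (812 and 657 CPM) and Il1b (4349 and 4598 CPM). Clustering without mixed cells gave 4 states of 111 and 102, 61 and 81, 28 and 31, and 4 and 25 helpers. In that clustering, 4 of the 6 innate-like markers were higher in the second state and 0 in the last. Of the 5 cycling markers, 4 were higher in the second state and 2 in the last. The first state differed by 11.7 percentage points (2.40 to 20.8), labelled Lcn2-ko minus wt, and the last by -8.50 (-13.2 to -4.08).

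**Figure D3:**
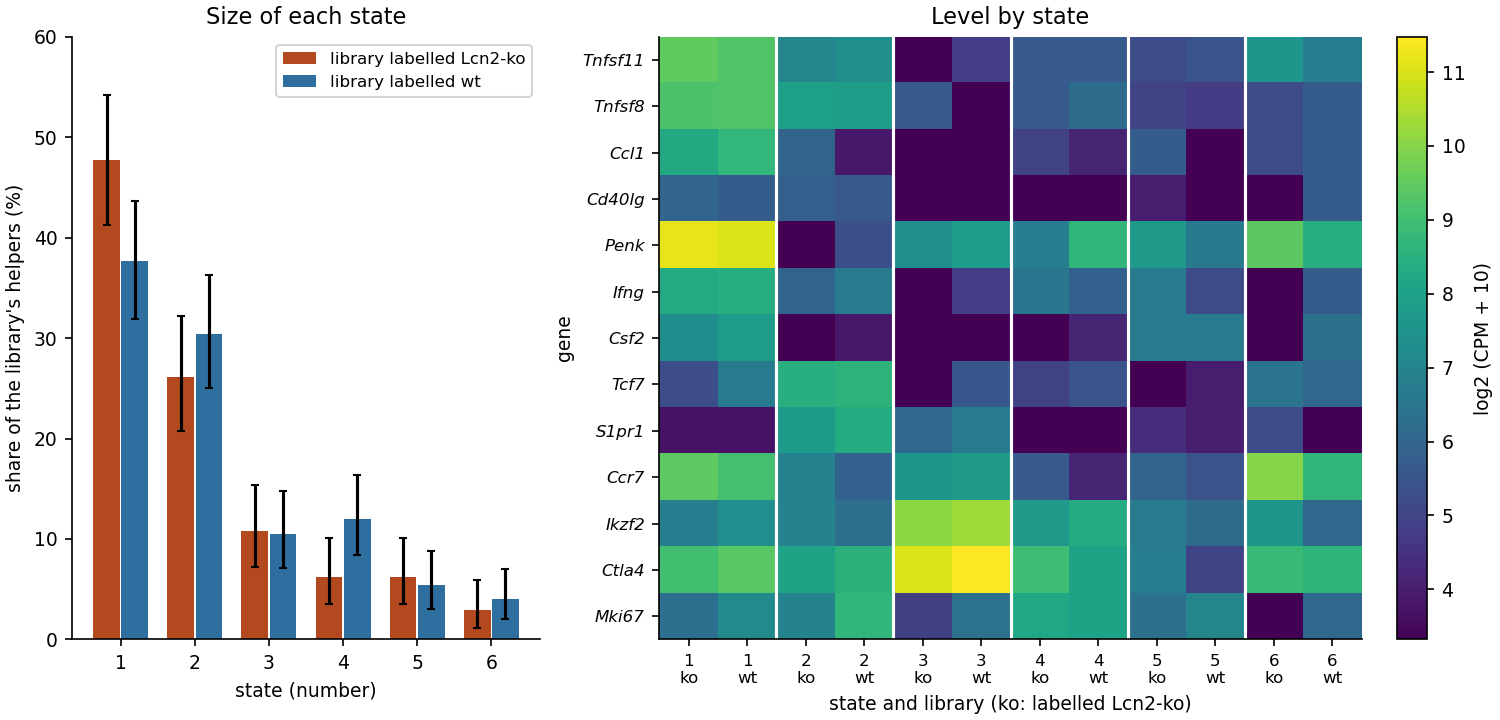
Left, share of each library's helpers in 6 states, in percent with exact 95% intervals, with the library labelled Lcn2-ko left of the library labelled wt. Right, level of 13 genes by state and library as log2 (CPM + 10); state 1 holds the highest Tnfsf11 (706 and 611 CPM) and Penk, state 2 Tcf7 and S1pr1, and state 3 Ikzf2 and Ctla4.

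Helpers made up 3.19% of kept cells in the library labelled Lcn2-ko (2.81 to 3.62%) and 3.58% in the library labelled wt (3.18 to 4.02%). The difference of -0.386 percentage points (-0.961 to 0.190) lay within counting error. Of helpers and regulatory T cells together, helpers were 30.8% labelled Lcn2-ko and 34.0% labelled wt, a difference of -3.17 points (-7.74 to 1.43). Of helpers and CD8 T cells together they were 18.4% and 25.2%, a difference of -6.72 points (-10.0 to -3.41). CD8 T cells were 14.1% of kept cells labelled Lcn2-ko and 10.6% labelled wt, so the last ratio moved with the CD8 share. The digest and the CD45+ sort can set these shares, and 1 library per label carries no spread between mice.

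Between the libraries, few genes passed a limit of 2-fold. Among 3786 genes that reached 50 CPM labelled Lcn2-ko or labelled wt, and 50 UMIs over both, 48 (1.27%) lay above the limit on the side labelled Lcn2-ko and 56 (1.48%) on the side labelled wt. With cells thinned to 1000 UMIs the counts were 13 and 19, and at a limit of 100 CPM 23 and 18. Fewer genes could qualify in either reading, as the limit of 50 UMIs was kept after thinning. How many qualified was not recorded, so these counts carry no share and are not set against the percentages above. Without mixed cells, 28 of 3656 (0.766%) were higher and 51 (1.39%) lower, and 8 and 27 genes met the limit in both readings. The marker genes themselves differed little. The log2 ratio, labelled Lcn2-ko over wt, was 0.30 for Cd4 (0.16 to 0.44), 0.37 for Tnfsf11 (0.11 to 0.63), 0.15 for Tnfsf8 (-0.12 to 0.41) and 0.05 for Ccl1 (-0.32 to 0.43). Without mixed cells, Tnfsf11 stood at 0.55 and Tnfsf8 at 0.34. Tcf7 stood at -0.57 (-1.03 to -0.13), Ccr7 at 0.74 (0.48 to 1.00), the inhibitory receptor gene Lag3 at 0.84 (0.39 to 1.31) and Il21 at -1.11 (-2.08 to -0.21).

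Genes of dividing cells were lower in helpers of the library labelled Lcn2-ko. Hmmr, a hyaluronan receptor gene of the mitotic spindle, had 8 UMIs labelled Lcn2-ko and 65 labelled wt (log2 ratio -2.79, -4.06 to -1.73), against log2 ratios of 0.66 in regulatory T cells and 0.16 in CD8 T cells. Ube2c, a ubiquitin-conjugating enzyme gene of mitosis, had 56 and 269 UMIs (-2.03, -2.47 to -1.61), against 0.01 and 0.22. Cdc20 had 10 and 66 UMIs, Cdca8 17 and 72, Aurkb 13 and 53, Tacc3 14 and 55, and Ccna2 30 and 108. Kif23 and Cenpf, further mitotic genes, had log2 ratios of -1.66 and -1.68. All 9 also lay below 0 without mixed cells, where Hmmr stood at -2.98, Ube2c at -1.91, Cdc20 at -2.18 and Cenpf at -3.30.

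The cell cycle list gave the same picture as a group. Its 24 measured members, those that reached 20 CPM on either side, had 0 higher by 1.5-fold or more and 18 lower by as much, against 606 (8.63%) higher and 693 (9.86%) lower of all 7025 genes measured by the same limits. Its median log2 ratio was -1.21 in helpers, -0.02 in regulatory T cells and 0.18 in CD8 T cells, beside -0.02 over all genes in helpers. Mki67 was at 84.7 CPM labelled Lcn2-ko and 197 CPM labelled wt, Top2a at 142 and 309, and Hmgb2 at 721 and 1273. Mcm6, a replication licensing gene, was at 142 and 124 CPM, on the other side. Summed over the list, helpers had 2444 CPM labelled Lcn2-ko and 4487 CPM labelled wt, regulatory T cells 3818 and 3879 CPM, and CD8 T cells 4086 and 3800 CPM.

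The list's transcripts were spread unevenly over the helpers. At least 1 list UMI was present in 222 helpers labelled Lcn2-ko and 259 labelled wt. The 10 helpers with most list UMIs held 36.9% of the list's UMIs labelled Lcn2-ko and 37.5% labelled wt. Helpers with at least 10 list UMIs were 15.8% labelled Lcn2-ko and 19.6% labelled wt, a difference of -3.80 points (-10.3 to 2.87), and 9.80% and 16.3% without mixed cells, a difference of -6.51 (-12.7 to -0.131). With each cell thinned to 1000 UMIs, 20.5% and 28.1% of helpers had at least 3 list UMIs, a difference of -7.60 points (-14.9 to -0.124). The thinned difference was -2.55 points in regulatory T cells and 0.972 in CD8 T cells. At the same limit without thinning, helpers were at 58.1% and 58.3%, a difference of -0.242 points (-8.72 to 8.21), whereas regulatory T cells differed by -6.16 points (-11.9 to -0.403) and CD8 T cells by 2.11 (-1.92 to 6.19). The helper difference in the share of cells thus depended on the limit and the depth, and its difference from the regulatory T cells was not tested.

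Other genes at the extremes differed in several classes or rested on few cells. Hspa1a, an inducible heat shock gene, had 273 UMIs labelled Lcn2-ko and 1199 labelled wt in helpers (log2 ratio -1.90), with ratios of -2.54 in regulatory T cells and -1.88 in CD8 T cells. Hspa1b had 298 and 1071 UMIs in helpers, at 371 and 1136 CPM. Of the 16 measured heat shock genes, 4 were lower by 1.5-fold or more and 0 higher, beside 9.86% lower and 8.63% higher over all measured genes. These genes respond to handling and to warm digests, and their part in the other differences was not tested. Ccl20 had 9 and 56 UMIs, of which a single cell labelled wt held 40, and Id3 (13 and 52 UMIs, log2 ratio -1.77) stood at -0.03 without mixed cells.

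On the higher side, the mast cell genes Cpa3 (96 and 1 UMIs), Cma1 (108 and 4), Mcpt2 (171 and 8), Mcpt4 (126 and 6) and Tpsb2 (117 and 13) rested on the single cell with mast cell transcripts, which held 92, 101, 154, 115 and 106 of those UMIs. C3 (144 and 36 UMIs, log2 ratio 2.23) stood at 0.59 without mixed cells and C1s1 (71 and 24 UMIs, 1.80) at -0.65. Gzmd had 70 and 13 UMIs, of which a single cell held 66. Cxcl9, a chemokine gene induced by interferon gamma, had 94 and 15 UMIs, of which a single cell held 43. Il1rl1 had 83 and 29 UMIs (1.75, 1.12 to 2.41) and stood at 1.32 (0.61 to 2.06) without mixed cells.

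Without mixed cells, the lowest genes again included genes of dividing cells, such as Cks1b (12 and 92 UMIs, log2 ratio -2.59) and Mki67 (37 and 146, -1.63). They also held Gzma (14 and 82 UMIs, -2.20), Cd7 (16 and 65, -1.68) and the chemokine gene Ccl4 (40 and 160, -1.65). The Gzma UMIs lay in 12 and 10 cells, and a single cell labelled wt held 31 of them. Ccl5 was at 234 CPM labelled Lcn2-ko and 427 CPM labelled wt with all helpers (-0.87, -1.13 to -0.62) and stood at -0.86 without mixed cells. Among the highest were Spp1, encoding osteopontin (73 and 24 UMIs, 1.95), Serpinb9b (94 and 40, 1.58), the kinase gene Plk2 (115 and 51, 1.52) and Nmrk1, a nicotinamide riboside kinase gene (104 and 48, 1.46). Macrophages had a Spp1 UMI in 35.8% and 41.5% of cells. The part of macrophage RNA, or of tumour and stroma RNA, in the helper values was not tested.

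The remaining lists are read beside 8.63% higher and 9.86% lower over all measured genes and a median of -0.02. Of 19 measured type 1 interferon genes, 5 were higher labelled Lcn2-ko by 1.5-fold or more and 1 lower, with a median log2 ratio of 0.46 (0.23 without mixed cells). Bst2, which encodes tetherin, was at 98.4 and 55.2 CPM, whereas Isg15 was at 23.7 and 45.6 CPM. Of 18 interferon gamma response genes, 4 were higher and 0 lower (median 0.28). Without mixed cells, 2 of 17 were higher and 1 lower (median 0.02). Of 22 glycolysis and hypoxia genes, 2 were higher and 0 lower (median 0.24). The Th1 list (15 measured, 0 higher, 3 lower, median -0.06), the follicular helper list (11, 0 and 3, 0.01), the Th17 list (7, 2 and 1, 0.31) and the TNF-family and costimulation list (19, 1 and 1, 0.01) are given by the same values. So are the T cell receptor signalling list (19, 0 and 1, 0.02), the immediate early and NF-kappa B list (23, 3 and 3, 0.10), the inhibitory receptor and exhaustion list (19, 1 and 3, -0.19) and the homing list (19, 1 and 3, -0.23). Only 2 genes of the Th2 list were measured.

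**Figure D4:**
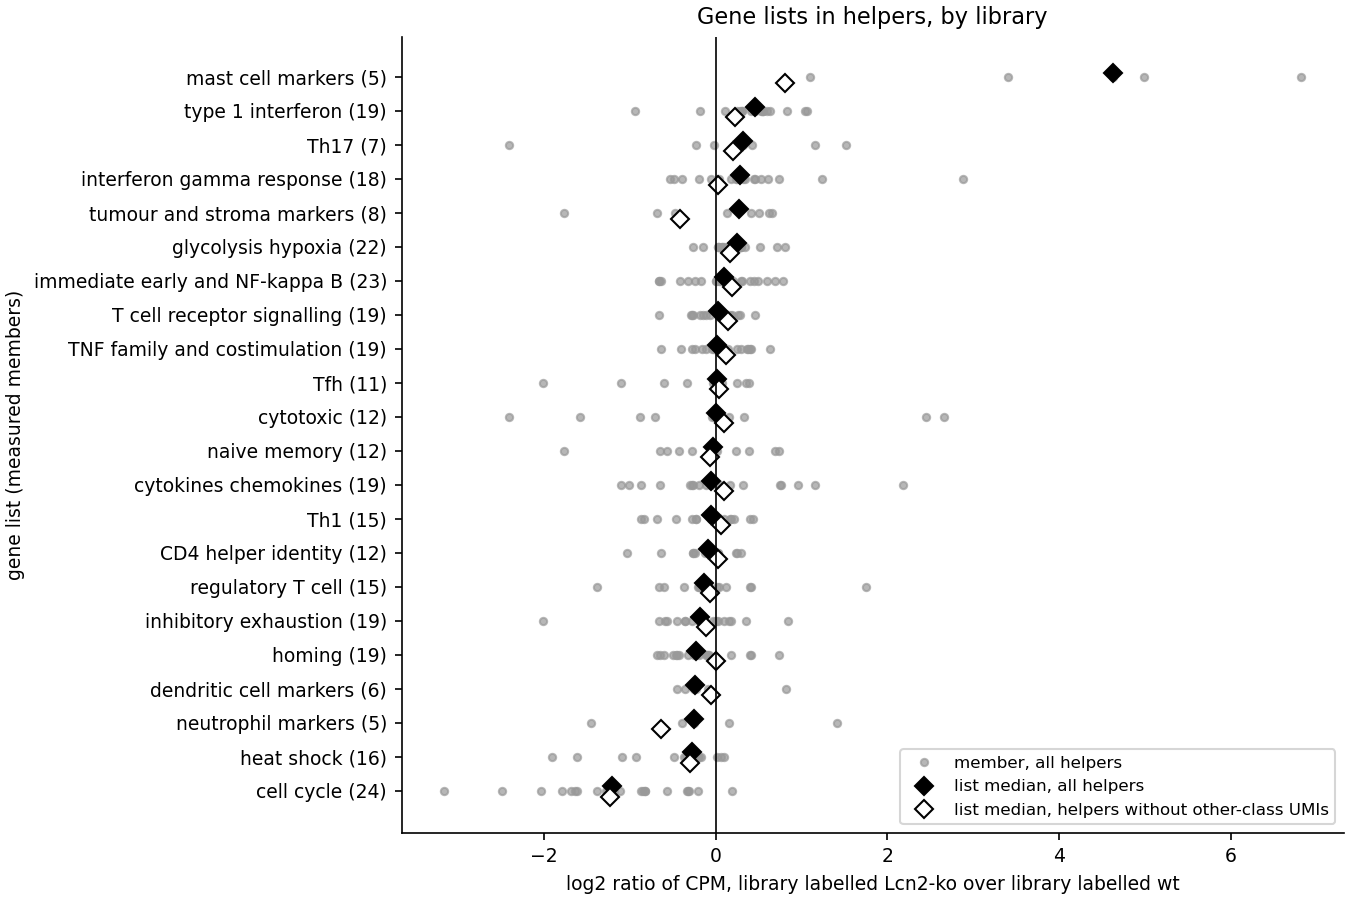
Log2 ratio of CPM in helpers, library labelled Lcn2-ko over library labelled wt, for the measured members of each gene list (grey points) with the list median over all helpers (filled diamonds) and without mixed cells, called helpers without other-class UMIs in the legend (open diamonds). The cell cycle median lies at -1.21 in all helpers, and the mast cell median rests on a single cell.

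Because male marrow was given to female mice, the sex-linked transcripts of a helper bear on its origin. A helper with a UMI of Ddx3y, Eif2s3y, Uty or Kdm5d and no Xist UMI was counted as Y-only, the pattern of donor cells, and one with Xist and no Y-linked UMI as Xist-only, the pattern of host cells. Y-only helpers were 44.8% labelled Lcn2-ko and 43.8% labelled wt, a difference of 0.973 points (-7.55 to 9.50), and 47.7% and 42.4% carried neither. Xist-only helpers were 15 of 241 labelled Lcn2-ko (6.22%, 3.53 to 10.1) and 36 of 276 labelled wt (13.04%, 9.31 to 17.6), a difference of -6.82 points (-11.9 to -1.68). Macrophages, at 0.465% and 0.488%, give the background. The Xist-only share was 18.5% and 17.4% in regulatory T cells, a difference of 1.13 points (-3.46 to 5.72), and 17.4% and 10.96% in CD8 T cells, a difference of 6.39 (3.23 to 9.48). In Foxp3-negative CD4 T cells with Il2ra UMIs, which the gate left out, it was 12.6% and 9.63%. That difference of 2.93 points (-3.43 to 9.18) spans 0 and has the opposite sign to the one in helpers. Thinned to 1000 UMIs, the helper shares were 3.77% and 7.30%, a difference of -3.53 (-7.64 to 0.570) that spans 0.

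Among Tnfsf11-positive helpers the gap was -13.5 points (-22.0 to -5.69), with 3 of 106 Xist-only cells (2.83%) labelled Lcn2-ko and 17 of 104 (16.3%) labelled wt. In helpers without Tnfsf11 it was -2.16 points (-8.85 to 4.98). State 1 held 5 Xist-only cells labelled Lcn2-ko and 18 labelled wt, state 2 held 8 and 12, and state 3 held 0 and 5. Without mixed cells, Tnfsf11 was at 289.9 CPM in Xist-only (13 cells, 8 UMIs) and 485.2 CPM in Y-only helpers (87 cells) labelled Lcn2-ko, and at 338.9 CPM (35 cells) and 294.9 CPM (99 cells) labelled wt. The log2 ratios of -0.74 (-1.99 to 0.28) and 0.20 (-0.46 to 0.82) had opposite signs and both intervals spanned 0. For Tnfsf8 the ratios were -1.52 (-3.43 to -0.12), from 4 Xist-only UMIs, and 0.50 (-0.05 to 1.02). Ifng was lower in Xist-only than in Y-only helpers of both libraries, at 36.2 and 307.6 CPM labelled Lcn2-ko and at 46.8 and 252.8 CPM labelled wt, from 1 and 4 Xist-only UMIs. Labels give the cells' sex as female although the protocol names male donors. From the protocol alone, the Y-linked UMIs above were read as those of donor marrow. State 5, which carried tumour and stroma genes, held 8 Y-only cells of 15 in each library. Whether tumour RNA supplied Y-linked UMIs was not tested.

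**Figure D5:**
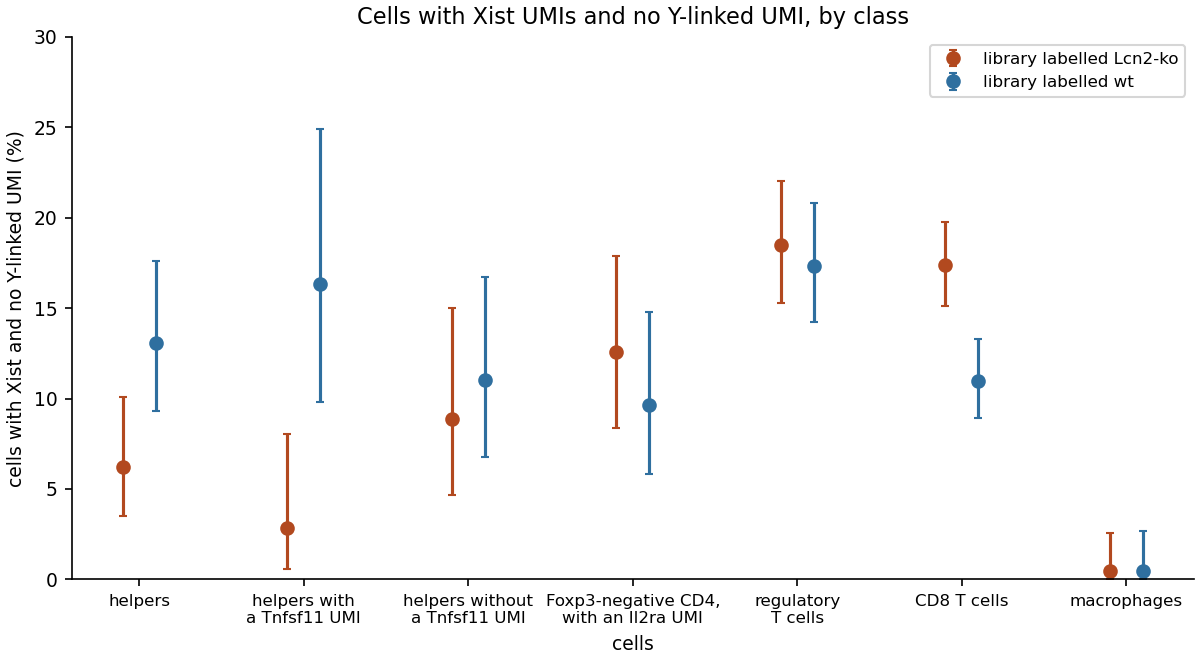
Share of cells that carried Xist and no Y-linked UMI, in percent with exact 95% intervals, by class, with the library labelled Lcn2-ko left of the library labelled wt. Helpers were at 6.22% and 13.04%, CD8 T cells at 17.4% and 10.96%, and macrophages near 0.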

How the data were processed

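The authors deposited raw UMI counts per gene and cell for 2 single-cell libraries, 1 per label, over 31253 genes. Cell Ranger and the mouse build mm10 are named, per the submitters' processing notes, and versions are not given in the sources used here. Cells that reached 200 genes with no more than 20% of UMIs from mitochondrial genes were kept. Counts were summed per class and library and divided by the class total (CPM). Ratios carry exact conditional binomial intervals, levels exact Poisson, shares exact Clopper-Pearson and differences of shares Newcombe intervals, at 95%. UMIs are counted molecules, and the intervals cover counting error only. No test was possible with 1 library per label. The ratio and count steps were tested on simulated Poisson counts of the class sums. Those counts hold no clustering of UMIs in single cells, as seen for Ccl1 and Ifng. They therefore cannot show how the intervals perform for such genes.

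Members and the 20 gene lists were chosen with earlier results of these data known. Named genes were the 12 highest and 12 lowest ratios between libraries (at least 50 CPM in either and 50 UMIs, interval without 0), the 12 and 12 against regulatory T cells, and 8 and 8 for the other contrasts, taken by the ratio nearer 0 of the libraries; listed genes are named besides. Not all of them are printed. States came from scanpy 1.11.5 and leidenalg 0.10.2 (1000 variable genes per library, 15 components, 15 neighbours, resolution 0.6), and a state was named after a cell type only with at least 3 markers from a list. Scrublet, through scanpy, marked 2 of all kept cells labelled Lcn2-ko and 0 labelled wt by its own limit, so doublets were not removed, and the 4% of cells with the highest scores were left out as an alternative. The reading without mixed cells was added after the data were seen. Other tools were numpy 2.4.6, pandas 2.3.3 and scipy 1.17.1. Promoter windows came from RefSeq and gene positions from GENCODE. A gene withheld for evaluation is not reported here.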

Additional observations from a re-analysis of the deposited data

Results flagged for a closer look

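The results here moved one way in helpers and the other way in another T cell class of the same libraries. None of these differences between classes was tested, since there is 1 library per label. The Xist-only share differed by -6.82 percentage points in helpers (labelled Lcn2-ko minus wt) and by 6.39 points in CD8 T cells. Hmmr had a log2 ratio of -2.79 in helpers and 0.66 in regulatory T cells. Ube2c stood at -2.03 in helpers and 0.22 in CD8 T cells, and Cdca8 at -1.85 and 0.41. Prkg2 stood at 1.62 in helpers and -1.32 in regulatory T cells, and had 0 UMIs labelled Lcn2-ko and 1 labelled wt in helpers without mixed cells.

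The mast cell genes were higher labelled Lcn2-ko in helpers and lower in the other classes. Cpa3 stood at 6.82 in helpers, -4.93 in regulatory T cells and -4.82 in CD8 T cells. Cma1 stood at 4.99, -3.45 and -2.64, Mcpt2 at 4.65, -4.38 and -2.36, Mcpt4 at 4.62, -3.57 and -3.15, and Tpsb2 at 3.40, -3.65 and -2.97. In helpers all of them rested on a single cell.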

How the results depend on the processing

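No paired analysis was possible because each label has 1 library, and for the same reason no replicate could be left out. Of the 48 genes higher in helpers labelled Lcn2-ko, the count was 13 with cells thinned to 1000 UMIs, 23 at a limit of 100 CPM and 28 without mixed cells; the 56 lower became 19 thinned and 18 at 100 CPM. The 160 genes higher than in regulatory T cells became 86 at 100 CPM and 102 without mixed cells, the 149 higher than in CD8 T cells 249 at 20 CPM and 77 at 100 CPM, and the 35 higher in Tnfsf11-positive helpers 19 when thinned. The signs turned for the Th2 list median (0.81 over 2 genes; -0.12 with Lyz2 at 0, -0.29 with Ikzf2 at 0, -0.33 thinned), Ccl20 (1.15 with at least 3 Cd3 UMIs), C1s1 (-0.22 thinned, -0.65 without mixed cells) and Ccl4 (0.25 with Lyz2 at 0, against -0.65). They also turned in the Tnfsf11 split for Serpinb9b (-1.15 thinned), Cxcl3 (2.496 without mixed cells) and Il1b (0.52 without mixed cells). Thinning left fewer UMIs under the same UMI limits, and the CPM limit sets which genes can be counted. How many genes qualified was not recorded for the thinned cells or the other CPM limits. The gene counts under those settings therefore carry no share. The causes of the changes were not tested. The Xist-only difference ranged from -8.27 to -3.53 points, the share of kept cells from -0.459 to -0.053 and the share of CD4 T cells from -3.68 to -1.003, while the Y-only difference ranged from -1.97 to 5.44. Of 220 list medians under alternatives, 215 moved little. Depth limits rare cytokines: a count of 0 among the helpers of a library allows up to 3 UMIs.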
